A study of Mus musculus with 3 samples.

Results

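The genes examined encode the nuclear subunits of the mitochondrial respiratory chain and ATP synthase. They were chosen by symbol: names beginning with Ndufa, Ndufb, Ndufc, Ndufs or Ndufv, Uqcr, Cox4 to Cox8 or Atp5, together with Sdha to Sdhd, Cyc1 and Cycs. This gave 91 of the 19938 genes that a probe set with 1 gene symbol represents on the array, drawn from 118 probe sets. A gene with several probe sets was represented by the brightest on average over the 3 arrays. Of the 91 genes, 36 belong by symbol to complex I, 4 to complex II, 9 to complex III, 17 to complex IV and 17 to ATP synthase. Cytochrome c is 1 gene, and the other 7 (Ndufaf1 to Ndufaf7) encode complex I assembly factors, which share the prefix but are not subunits. Symbols alone set the membership, though the rule was chosen with earlier results of these data known.

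RNA from whole suspensions of mouse thymocytes was hybridised to 3 Affymetrix whole-transcript arrays, with 1 array for each genotype. The wild type mouse was 12 weeks old, the β-catenin transgenic mouse 16 weeks and the TCF-1-/- (TCF-1-deficient) mouse 8 weeks. The sources used here name no promoter for the transgene, no sex and no strain. TCF-1 is a DNA-binding factor of developing T cells that β-catenin can join as a coactivator, and the study's design compares loss of the first with gain of the second. With 1 array for each genotype there is no replicate check, no test can be made, and genotype, age and single array cannot be told apart. Every comparison below is therefore a difference between arrays, and a difference of at least 1.5-fold (0.58 on the log2 scale) is a rule of size.

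The respiratory chain passes electrons from NADH (complex I) and succinate (complex II) through complex III and cytochrome c to oxygen at complex IV. Complexes I, III and IV pump protons across the inner mitochondrial membrane, and ATP synthase, also called complex V, uses the returning protons to make ATP. Most subunits are encoded in the nucleus and imported, while a few hydrophobic core subunits are encoded by mitochondrial DNA. In thymocytes, metabolic activity differs between stages of development, and proliferating immature cells use both glycolysis and respiration.

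Most subunit genes stood slightly higher in the TCF-1-deficient sample than on the other arrays, and the β-catenin transgenic array was close to wild type. The median log2 level over the 91 genes was 9.85 in wild type, 9.85 in the transgenic and 10.19 in the TCF-1-deficient sample. The TCF-1-deficient array was above wild type for 67 of the 91 genes (73.6%), below it for 9 and identical for 15, whereas over all genes 37.6% were above, 26.1% below and 36.4% identical. The median difference was 0.14 on the log2 scale and the median over all genes was 0. In this bulk RNA, a change in the share of cells of one type and a change in RNA per cell cannot be told apart.

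The differences were small but ran mainly one way. Only Uqcr11 and Atp5mpl were at least 1.5-fold higher in the TCF-1-deficient sample, 2 of 91 genes against 4.04% of all genes, and 0 were at least 1.5-fold lower, against 6.9% of all genes. With the size set at 0.32 on the log2 scale, 19 of the 91 (20.9%) were higher, against 10.5% of all genes. Ndufs4 and Ndufv3 were the 2 genes lower by that size, against 12.8%. Among the 4592 genes at least as bright as the lower quartile of the members (mean log2 level 8.85), the median difference was -0.06, with 32.6% above wild type and 56.1% below.

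In the transgenic sample, 28 of the 91 genes were above wild type, 29 below and 34 identical, and the median difference was 0. Over all genes, 24.5% were above, 22.2% below and 53.3% identical. Atp5k was the 1 gene at least 1.5-fold lower, against 0.667% of all genes, and 0 were at least 1.5-fold higher, against 0.487%. At a size of 0.32 on the log2 scale, Cycs and Uqcrb were higher, against 1.88% of all genes, and Atp5k and Ndufs4 were lower, against 3.05%.

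In the direct comparison of the mutants, the transgenic value was below the TCF-1-deficient one for 66 of the 91 genes, above it for 11 and identical for 14, with a median difference of -0.14. Over all genes 34.4% were lower, 24.6% higher and 41.0% identical. The genes at least 1.5-fold lower on the transgenic array were Atp5l, Ndufa4, Atp5k and Atp5g1, 4 of 91 (4.40%) against 4.4% of all genes, and 0 were higher by that size, against 6.29%. The transgenic and wild type arrays each enter 2 of these comparisons, and so does the TCF-1-deficient array, so the 3 sets of differences share arrays and are given side by side only.

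**Figure D1:**
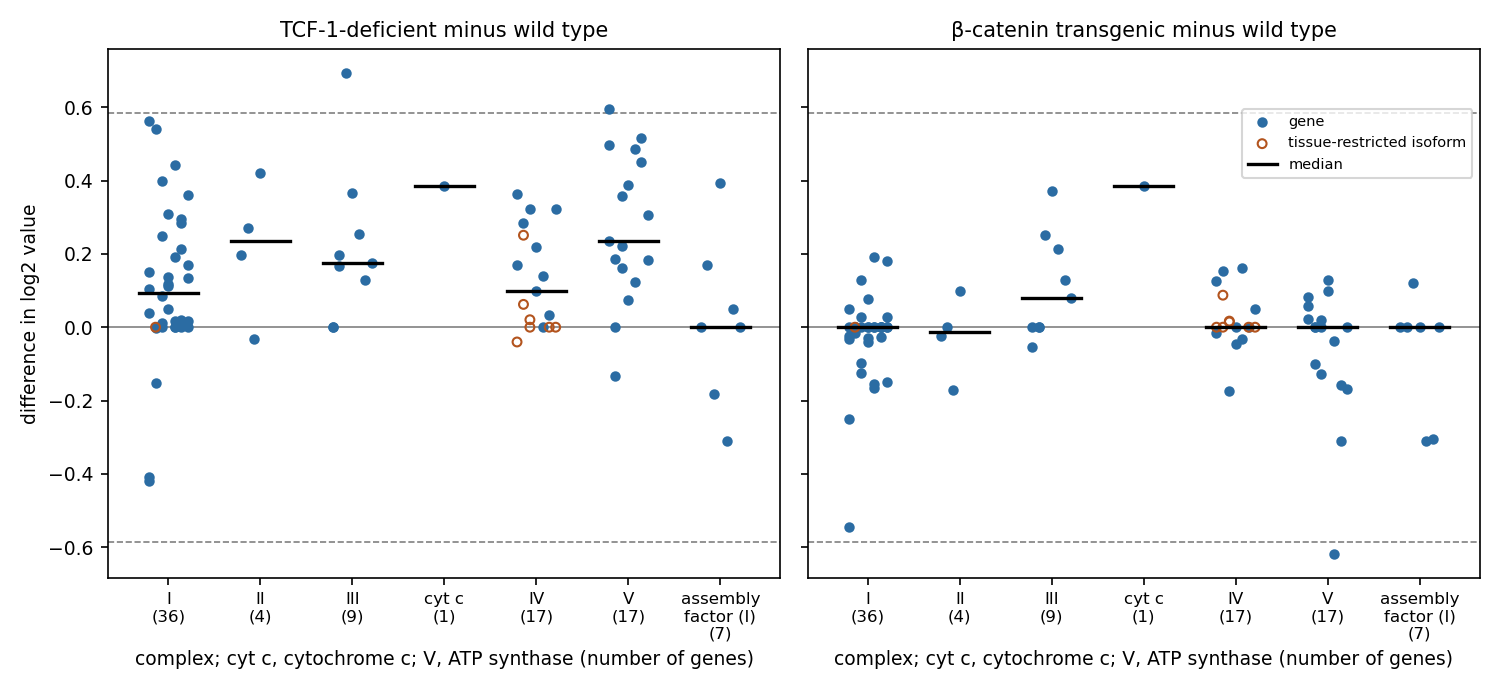
Difference in log2 value for each gene, grouped by complex, for the TCF-1-deficient array minus wild type (left) and the β-catenin transgenic array minus wild type (right). Each point is a gene, black bars are medians, open circles are tissue-restricted isoforms, and dashed lines mark 1.5-fold; the left panel lies mainly above 0, with an ATP synthase median of 0.24, and the right panel is centred on 0.

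Most subunit genes were highest on the same array. Among the 84 subunit genes without the assembly factors, 57 (67.9%) had their highest level in the TCF-1-deficient sample, against 31.4% of all genes and 28.9% of the bright genes. Only 5 of the 84 (5.95%) had their lowest level there, against 22.5% of all genes and 51.3% of the bright genes. For 22 of the 84 the wild type and transgenic values were identical and the TCF-1-deficient value differed, 26.2% against 19.6% of all genes and 15.05% of the bright genes. A further 8 (9.52%, against 33.6% and 8.93%) had 1 value on all 3 arrays (Atp5b, Cyc1, Ndufa13, Ndufs1, Ndufs5, Ndufa4l2, Cox6a2 and Cox7b2). Identical values to the last deposited digit are common in this table, so a difference of 0 is not a measured equality.

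The zero point of these differences depends on how the arrays are scaled. Subtracting from each array the median of its 35556 probe sets moves every TCF-1-deficient minus wild type difference up by 0.13, which puts 86 of the 91 genes above 0 and 5 below, and 80.7% of all genes above 0. The members' median was then 0.27 and that of all genes 0.13. Centring on the median over named genes moves the differences down by 0.05 and leaves 59 genes above 0 and 32 below, against 32% of all genes above. Removing a loess trend on mean level gave 77 above and 14 below, against 41.8% of all genes above, with a median of 0.21. For the transgenic array minus wild type, the same 3 settings gave 74 above and 17 below, 28 above and 63 below, and 47 above and 44 below. The members' shares above 0 were 81.3%, 30.8% and 51.6%, against 86.1%, 24.1% and 38.9% of all genes. A single difference below 0 and smaller than an upward shift, or above 0 and smaller than a downward one, therefore changes sign. For the transgenic array minus the TCF-1-deficient array the splits were 4 above and 87 below, 32 above and 59 below, and 14 above and 77 below. Over all genes, 21.6%, 70.5% and 60.7% were above 0 in these settings.

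**Figure D2:**
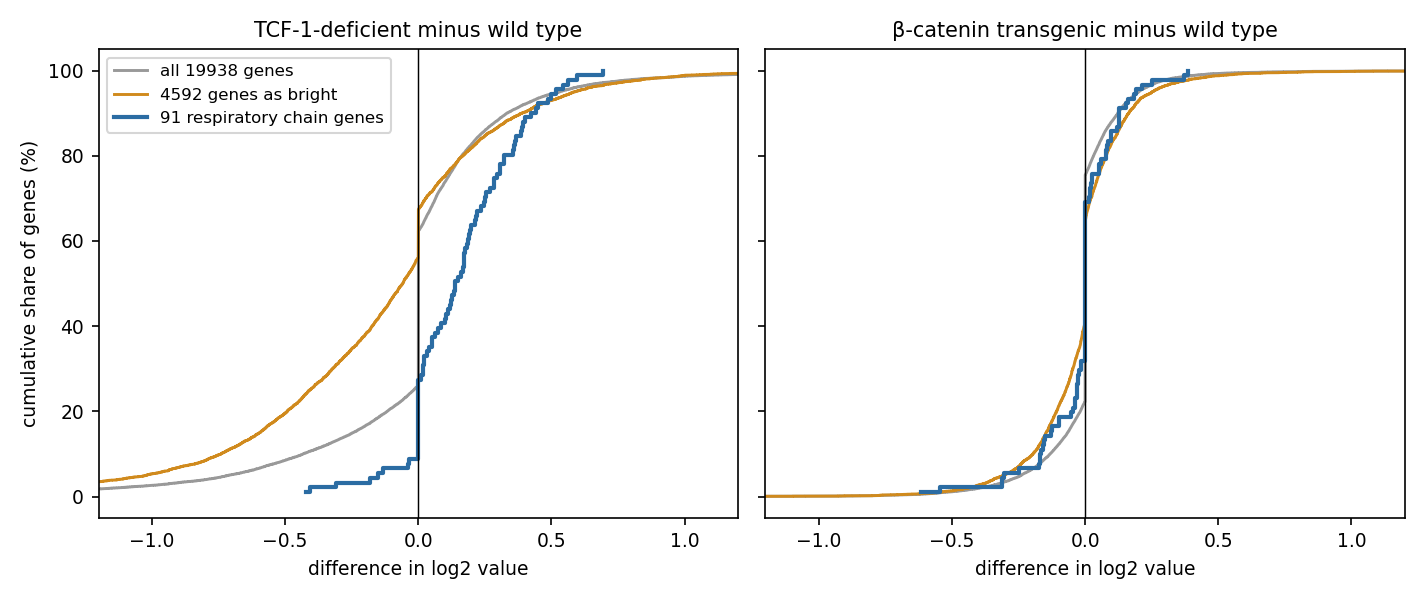
Cumulative share of genes against the difference in log2 value for the member genes, all genes and the genes as bright as the members, TCF-1-deficient minus wild type and β-catenin transgenic minus wild type. In the first comparison the members' curve lies to the right of both others at the median (0.14 against 0 and -0.06). In the second each median is 0, and 31.9% of members, 22.2% of all genes and 40.8% of the bright genes lie below 0.

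Some promoters of these genes hold short sequence motifs, and stretches that hold them are shown to let the sequence be read beside the values. RefSeq promoters (GRCm38.p6, 250 bases before and 50 after the transcription start) were at hand for 68 of the 84 subunit genes, as 73 promoters. In each, 3 motifs of factors known for regulating nuclear respiratory genes were searched on both strands. They were CGCATGCG (NRF1-type, the core of its site and the same on both strands), CCGGAAG (ETS-type, as bound by GABP) and AAGATGGC (YY1-type). Each stretch below is the 120 bases before the start site, 5′ to 3′ on the gene's own strand, with the match in capitals. CTTCCGG is the ETS-type motif on the opposite strand. The first 4 hold an ETS-type match and come from genes with differences of 0.32 to 0.69 between the wild type and TCF-1-deficient arrays. All 4 lie above the median of the 17 genes with that motif, which was 0.18. Over those 17 genes the TCF-1-deficient minus wild type differences ran from -0.13 to 0.69, with 16 above 0 and 1 below.
Uqcr11: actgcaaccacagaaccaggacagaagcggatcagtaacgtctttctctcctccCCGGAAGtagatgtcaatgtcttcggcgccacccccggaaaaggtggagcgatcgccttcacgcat
Atp5e: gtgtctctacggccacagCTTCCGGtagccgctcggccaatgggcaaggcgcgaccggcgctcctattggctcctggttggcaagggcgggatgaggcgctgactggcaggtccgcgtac
Sdhd: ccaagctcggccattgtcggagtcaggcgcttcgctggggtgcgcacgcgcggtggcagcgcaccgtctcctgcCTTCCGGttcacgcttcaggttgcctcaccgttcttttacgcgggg
Cox6b1: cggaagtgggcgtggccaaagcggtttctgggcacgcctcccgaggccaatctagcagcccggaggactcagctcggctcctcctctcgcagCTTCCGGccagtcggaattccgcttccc

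These lie at chr10:80406822-80406941 for Uqcr11, chr2:174464102-174464221 for Atp5e, chr9:50603850-50603969 for Sdhd and chr7:30626115-30626234 for Cox6b1, all on the minus strand. The next 3 hold the NRF1-type match and include Atp5k, the member with the largest difference on the transgenic array, and Cycs, which encodes cytochrome c.
Atp5g2: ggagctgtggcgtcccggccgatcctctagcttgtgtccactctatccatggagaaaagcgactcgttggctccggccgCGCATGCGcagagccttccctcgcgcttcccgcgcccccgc
Atp5k: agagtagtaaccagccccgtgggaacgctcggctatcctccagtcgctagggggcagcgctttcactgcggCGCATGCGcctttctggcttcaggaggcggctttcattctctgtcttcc
Cycs: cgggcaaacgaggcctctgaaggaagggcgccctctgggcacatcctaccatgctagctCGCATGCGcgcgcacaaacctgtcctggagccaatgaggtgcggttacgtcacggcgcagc

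They lie at chr15:102671048-102671167 for Atp5g2, chr5:108434400-108434519 for Atp5k and chr6:50566570-50566689 for Cycs, all on the minus strand. A match is a run of letters and was not measured as a binding site. The YY1-type motif was in 10 of the 73 promoters (13.7%), against 3.22% of promoters of protein-coding genes on the array and 5.71% of promoters of the bright genes. Here the bright genes are protein-coding genes with a promoter and at least as bright as the lower quartile of the 84 subunit genes. The NRF1-type motif was in 10 (13.7%), against 2.77% and 5.21%. The ETS-type motif was in 17 (23.3%), against 12.2% and 20.5%, so its share was close to that of the bright genes. TATAAA, a motif of another kind of promoter, was in 9 (12.3%), against 11.6% and 6.30%.

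Only 250 bases before and 50 after the start were searched, so every match lies near it by design. Positions were not set beside those in other promoters. Of the 10 YY1-type matches, 8 began between 22 and 38 bases after the start, and of the 10 NRF1-type matches, 9 began before it, with that of Uqcr11 running across the start. The 31 genes with at least 1 of these 3 motifs had a median TCF-1-deficient minus wild type difference of 0.17, from -0.41 to 0.69, and the 37 matched genes with none had a median of 0.10, from -0.42 to 0.56. The ranges overlapped, and 27 of the 31 and 26 of the 37 were above 0. For the transgenic array minus wild type, both medians were 0, with 13 above, 8 below and 10 identical among the 31 and 5 above, 18 below and 14 identical among the 37.

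**Figure D3:**
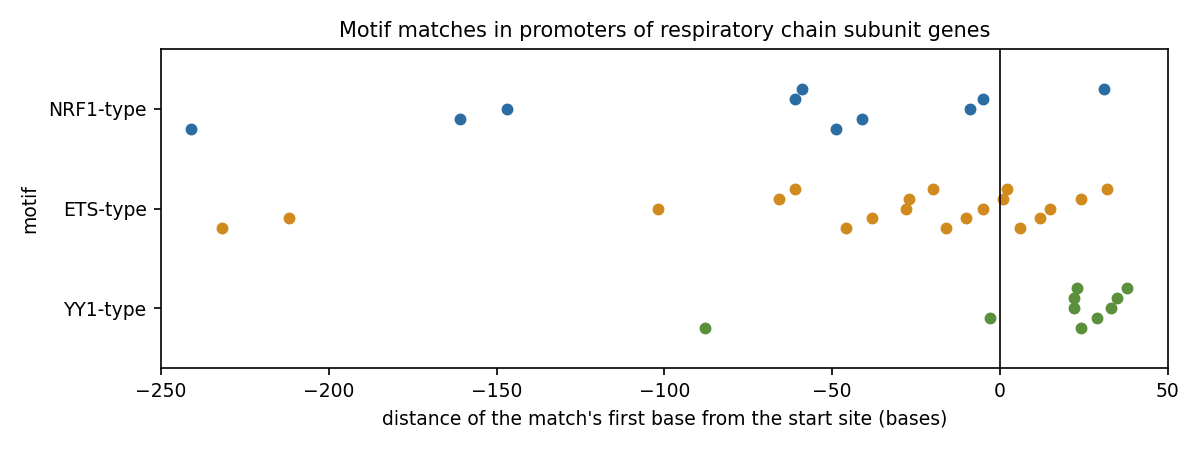
Distance in bases from the transcription start (0) of the first base of each match to the YY1-type, ETS-type and NRF1-type motifs in 73 promoters of subunit genes. Each point is 1 match and the vertical scatter within a motif has no meaning; 8 of the 10 YY1-type matches lie after the start.

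ATP synthase and complex II had the highest median differences of the multi-gene complexes, 0.24 and 0.23. In the TCF-1-deficient sample 15 of the 17 ATP synthase genes were above wild type, 1 was below and 1 identical. Against wild type the transgenic array had 6 above, 7 below and 4 identical, with a median of 0. Between the mutant arrays the transgenic one was lower for 14 of 17, with a median of -0.34.

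The c-ring, the proton-driven rotor of the membrane part, is encoded by 3 genes for the same mature protein. Atp5g3 measured 11.42 in wild type, 11.51 in the transgenic and 11.92 in the TCF-1-deficient sample. Atp5g1 measured 11.34, 11.18 and 11.78 in the same order, and Atp5g2, whose promoter stretch is shown above, 11.95, 11.78 and 12.26. All 3 were highest in the TCF-1-deficient sample, by 0.50, 0.45 and 0.31 over wild type. On the transgenic array Atp5g1 and Atp5g2 were 0.16 and 0.17 below wild type and Atp5g3 was 0.08 above.

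The small membrane subunits help ATP synthase form dimers. Atp5mpl measured 9.67 in wild type, 9.70 in the transgenic and 10.27 in the TCF-1-deficient sample, 1.51-fold above wild type. Atp5l, subunit g, measured 9.44, 9.13 and 9.95, so it was 0.52 above wild type on one mutant array and 0.31 below on the other. Its 6 probe sets differed between the wild type and TCF-1-deficient arrays by 0.37 to 0.52. Atp5k, subunit e, is a partner of subunit g and measured 9.75, 9.14 and 9.88. It was the member with the largest difference on the transgenic array, 0.62 below wild type, while the TCF-1-deficient array was 0.12 above. Atp5j2, subunit f, measured 11.12, 11.25 and 11.51. Atp5md measured 10.55, 10.55 and 10.73. All 5 of these genes were above wild type in the TCF-1-deficient sample, with a median of 0.39.

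The catalytic head and central stalk differed less. Atp5b, the catalytic beta subunit, was identical on all 3 arrays at 13.13. Atp5a1, the alpha subunit, measured 11.38, 11.44 and 11.62 on the wild type, transgenic and TCF-1-deficient arrays, and Atp5c1, the gamma subunit of the shaft, 11.55, 11.42 and 11.77. Atp5d, the delta subunit, measured 12.93, 13.02 and 13.00. Atp5e, the epsilon subunit, had the largest difference of these 5, with 8.45, 8.41 and 8.94. The median of the 5 was 0.22 in the TCF-1-deficient sample.

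The peripheral stalk holds the head still against the rotor. Atp5pb, subunit b, measured 10.93, 10.95 and 11.29 in that order, Atp5o 10.61, 10.51 and 10.80, and Atp5j 11.57, 11.57 and 11.73. Atp5h, subunit d, went the other way with 11.75, 11.75 and 11.62, and was the 1 ATP synthase gene below wild type in the TCF-1-deficient sample. The difference of 0.13 is as large as the shift that centring on all probe sets brings.

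**Figure D4:**
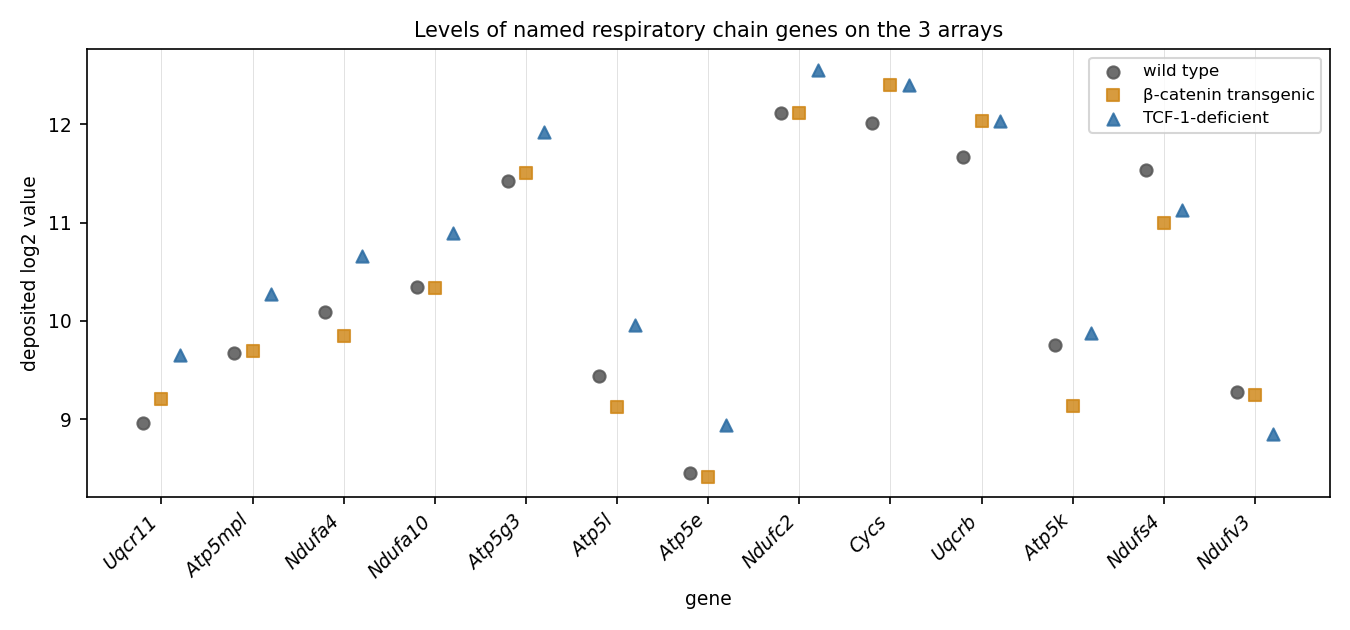
Log2 value on each of the 3 arrays for a selection of members named in the text, which leaves out some with differences as large, such as Atp5g1. Symbols mark wild type, β-catenin transgenic and TCF-1-deficient arrays, 1 each with no error bar; levels are to be read within a gene, and Uqcr11 and Atp5mpl reach 9.65 and 10.27 in the TCF-1-deficient sample against 8.96 and 9.67 on wild type.

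Complex III was the only multi-gene complex whose median on the transgenic array was above 0 on the deposited scale, and that median was 0 with the lowest probe set of each gene or without members that have several. In the TCF-1-deficient sample 8 of its 9 genes were above wild type, 0 below and 1 identical, with a median of 0.18, and on the transgenic array 5 were above, 1 below and 3 identical, with a median of 0.08. Uqcr11, a small accessory subunit, measured 8.96 in wild type, 9.21 in the transgenic and 9.65 in the TCF-1-deficient sample, the largest difference of all members at 1.62-fold. A second, dimmer Uqcr11 probe set gave 8.06, 8.06 and 8.31, so its difference was 0.25 and did not reach 1.5-fold.

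Uqcrb, another small subunit, measured 11.67 in wild type, 12.04 in the transgenic and 12.03 in the TCF-1-deficient sample. Both mutant arrays were above wild type by the same amount to within 0.01. Uqcrc1 and Uqcrc2, the core proteins, measured 10.96, 11.17 and 11.21, and 11.63, 11.76 and 11.76. Uqcrfs1, the Rieske iron-sulfur protein, measured 8.66, 8.74 and 8.84. Among the other subunits, Uqcr10 and Uqcrq were 0.20 and 0.17 higher in the TCF-1-deficient sample and identical between the other arrays. Uqcrh measured 11.19, 11.14 and 11.19, and Cyc1, the cytochrome c1 that hands electrons to cytochrome c, was identical at 10.31.

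Cycs encodes cytochrome c, the mobile carrier between complexes III and IV and, once released, a trigger of the apoptosome. Its brightest probe set measured 12.01 on the wild type array and 12.40 on both mutant arrays, a difference of 0.39. The other probe sets differed from it. The second gave 11.55, 11.75 and 11.75, and the dimmest, at 6.64, 6.16 and 6.34, was lower on both mutant arrays. Cycs was the 1 gene of the 18 with several probe sets whose signs were opposed between the wild type and TCF-1-deficient arrays, and averaging its probe sets gave a difference of 0.10.

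Complex IV has tissue-restricted isoforms beside its widely expressed subunits. Of its 10 widely expressed subunit genes, 9 were above wild type in the TCF-1-deficient sample and 1 was identical, with a median of 0.19. The transgenic array had 4 above, 4 below and 2 identical. Cox4i1, a regulatory subunit, measured 10.07 in wild type, 10.19 in the transgenic and 10.43 in the TCF-1-deficient sample. Cox6b1, which joins the monomers of the dimer, measured 11.37, 11.42 and 11.69. Cox5a measured 10.14, 9.97 and 10.46, so the transgenic array was 0.17 below wild type. The remaining widely expressed genes differed from wild type in the TCF-1-deficient sample by 0.03 for Cox7b to 0.28 for Cox6c, and Cox7a2l, a supercomplex factor, was the identical one. On the transgenic array Cox6a1 and Cox6c were highest relative to wild type, by 0.16 and 0.15, and Cox5b and Cox7a2l were 0.05 and 0.03 below.

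Ndufa4 carries a complex I name but is now assigned to complex IV. It measured 10.09 in wild type, 9.84 in the transgenic and 10.66 in the TCF-1-deficient sample, so the mutant arrays lay on opposite sides of wild type and 0.81 apart. With Ndufa4 counted in complex IV, the median of the widely expressed genes was 0.22 in the TCF-1-deficient sample and 0 on the transgenic array.

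The isoforms restricted to other tissues differed little. Cox4i2, the lung form, measured 6.83, 6.92 and 7.08 on the wild type, transgenic and TCF-1-deficient arrays, and its difference of 0.25 was the largest of the 8. Cox6a2 and Cox7a1, the heart and muscle forms, measured 7.23 on all arrays, and 6.91, 6.93 and 6.91. Their counterparts Cox6a1 and Cox7a2 measured 10.54, 10.70 and 10.68, and 10.23, 10.23 and 10.44. The testis forms Cox6b2, Cox7b2 and Cox8c measured 7.25, 7.25 and 7.21; 4.37 throughout; and 6.64, 6.65 and 6.66. Cox8b measured 5.98, 5.98 and 6.04, its counterpart Cox8a 11.66, 11.64 and 11.83, and Ndufa4l2 6.38 on all arrays. Averaged over the arrays, Cox7b2, Cox8b, Cox8c and Ndufa4l2 were under the median level of all genes, 6.90. So were the assembly factors Ndufaf5 and Ndufaf6, and the other 85 members reached it.

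Complex II, which is also the succinate dehydrogenase of the TCA cycle, had 3 of its 4 genes above wild type in the TCF-1-deficient sample, with a median of 0.23. Sdhd, a membrane anchor, measured 9.36 in wild type, 9.46 in the transgenic and 9.78 in the TCF-1-deficient sample. Sdhb, the iron-sulfur subunit, measured 10.09, 10.09 and 10.36, and Sdha, the flavoprotein, 10.70, 10.67 and 10.89. Sdhc, the other anchor, measured 10.79, 10.62 and 10.76 and was the 1 gene of the complex with no higher value in the TCF-1-deficient sample. The transgenic array was lower than the TCF-1-deficient array for all 4 genes.

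Complex I held genes with differences in both directions. In the TCF-1-deficient sample 25 of its 36 genes were above wild type, 4 below and 7 identical, with a median of 0.09. In the transgenic sample 7 were above, 13 below and 16 identical. The 6 measured catalytic core genes, which hold the flavin and iron-sulfur clusters, had a median of 0.15 in the TCF-1-deficient sample, and the 29 accessory genes, Ndufa4 among them, a median of 0.05. Among the core genes, Ndufv1, which binds NADH, measured 9.43, 9.43 and 9.73, Ndufs8 10.60, 10.79 and 10.79, and Ndufs1 was identical at 8.98.

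The accessory subunits differed in both directions. Ndufa10 measured 10.35 in wild type, 10.33 in the transgenic and 10.89 in the TCF-1-deficient sample. Ndufc2, a membrane arm subunit, measured 12.11, 12.11 and 12.56, Ndufb9 10.22, 10.25 and 10.62, and Ndufb6 10.11, 10.29 and 10.47. These 4 were 0.36 to 0.54 above wild type in the TCF-1-deficient sample. Ndufs4, which helps stabilise the NADH-oxidising module, measured 11.54 in wild type and was below it on both mutant arrays, by 0.54 on the transgenic and by 0.41 in the TCF-1-deficient sample. Ndufv3, a small flavoprotein-module subunit, measured 9.27, 9.25 and 8.85, so that only the TCF-1-deficient array was low. Ndufb10 measured 7.61, 7.61 and 7.46, Ndufb3 8.32, 8.15 and 8.32, and Ndufa11 9.73, 9.85 and 9.81.

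The complex I assembly factors did not share the shift of the subunits. Of the 7 that share the prefix, 3 were above wild type in the TCF-1-deficient sample, 2 below and 2 identical, with a median of 0. Ndufaf4 measured 7.27, 7.27 and 7.66 and Ndufaf2 7.10, 7.10 and 7.27 on the wild type, transgenic and TCF-1-deficient arrays. Ndufaf5 measured 6.88, 6.57 and 6.57, Ndufaf6 6.67, 6.36 and 6.72, and Ndufaf3 9.43, 9.55 and 9.25.

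A wider list of 17 complex I assembly factors had a median of 0 in both comparisons with wild type, with 5 above, 5 below and 7 identical in the TCF-1-deficient sample. Dmac1 had the largest difference, 0.56 below a wild type value of 10.56. The 19 assembly factors of complex IV had medians of 0, and Coa3 was the highest of them relative to wild type, with 9.23, 9.51 and 9.70. The 4 complex II factors had a median of 0.07 in the TCF-1-deficient sample, with Sdhaf2 at 9.38, 9.42 and 8.96. All 4 ATP synthase assembly factors were identical on all arrays. The 6 complex III factors had a median of 0.00, but Uqcc2, which assists cytochrome b synthesis, measured 8.86, 9.09 and 9.92, and was 1.06 above wild type.

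Of the subunits encoded by mitochondrial DNA, COX2 and ND3 had a named probe set. COX2 measured 13.76 in wild type, 13.69 in the transgenic and 13.46 in the TCF-1-deficient sample, and ND3 12.77 on all. Neither showed the higher TCF-1-deficient value seen for most nuclear subunits.

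Other mitochondrial gene lists were set beside the subunits. Protein import had 21 of 26 genes above wild type in the TCF-1-deficient sample, 4 below and 1 identical, with a median of 0.17. Its chaperones led, with Hspd1 at 10.17, 10.27 and 11.16, Hspe1 at 10.17, 10.17 and 11.05 and Hspa9 at 10.48, 10.42 and 11.18. Dnajc19, a motor component, was the lowest relative to wild type, with 8.99, 8.99 and 8.41. The TCA cycle and pyruvate dehydrogenase list had 14 of 17 above wild type, with a median of 0.15, led by Suclg2 with 8.07, 7.64 and 8.99 and Fh1 with 9.70, 9.46 and 10.31. The mitochondrial ribosome had 48 of 77 above, 11 below and 18 identical, with a median of 0.08, and Mrpl12 measured 8.99, 9.24 and 9.80.

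The smaller lists were more mixed. In the TCF-1-deficient sample the median was 0.12 over 8 carriers of ATP, ADP and phosphate, 0.11 over 12 coenzyme Q genes, 0.07 over 10 cristae genes and 0 over 17 iron-sulfur and haem genes. Slc25a4, an ADP/ATP carrier, measured 10.14, 10.08 and 10.57. Among the cristae genes Chchd3 was above wild type on both mutant arrays, with 10.79, 11.25 and 11.42. Slc25a37, the mitochondrial iron importer, measured 10.12 in wild type and was 0.82 lower in the TCF-1-deficient sample. The 5 inhibitors and supercomplex factors, 2 of which are also members, had medians of 0 on the TCF-1-deficient and -0.22 on the transgenic array. Among them Atpif1, the ATP synthase inhibitor, measured 12.65, 12.44 and 12.87. On the transgenic array the median was 0 for each of the other lists in this and the preceding paragraph.

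The known regulators of these genes did not share one direction. Of 12 regulators of mitochondrial biogenesis, 3 were above wild type in the TCF-1-deficient sample, 7 below and 2 identical, with a median of -0.11. Myc measured 11.13 in wild type, 10.84 in the transgenic and 12.23 in the TCF-1-deficient sample, and Pprc1, a coactivator of the PGC-1 family, 8.31, 8.11 and 8.89. Nrf1 measured 9.37, 9.27 and 9.03, Gabpa 9.74, 9.73 and 9.58, and Yy1 11.27, 11.32 and 11.01. The factors whose motifs were searched above were thus lower in the TCF-1-deficient sample than on wild type by 0.15 to 0.33. Most bright genes were lower there as well. Tfam, which packages and transcribes mitochondrial DNA, was identical at 8.12. The 15 genes of mitochondrial DNA maintenance had a median of 0, with Ssbp1 at 8.57, 8.32 and 9.19 and Polg2 at 7.72, 7.01 and 7.05.

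**Figure D5:**
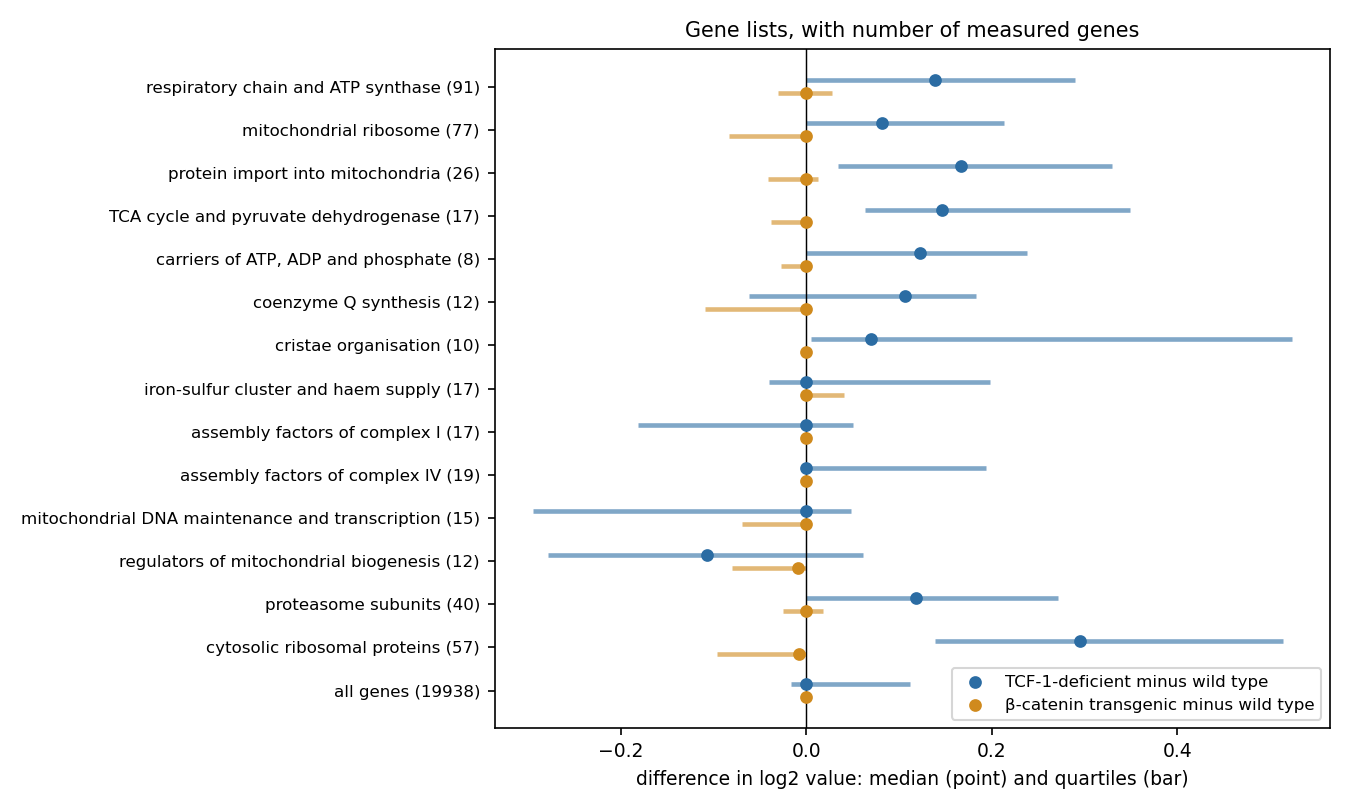
Median difference in log2 value from wild type for the subunit genes and the other gene lists, TCF-1-deficient and β-catenin transgenic arrays, beside all genes and 2 lists outside mitochondria. Cytosolic ribosomal proteins reach 0.30 in the TCF-1-deficient sample, above the 91 members' 0.14, bars span the quartiles, and the transgenic medians of the lists shown lie between -0.01 and 0.

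Lists outside mitochondria were also higher in the TCF-1-deficient sample. Of 57 cytosolic ribosomal protein genes, 52 were above wild type, with a median of 0.30. Of 40 genes with a proteasome-type symbol 27 were above, with a median of 0.12. The 40 include Psmc3ip, identical at 7.35 on all arrays, which is not a proteasome subunit. Both lists were added after the values of the members had been seen. In the transgenic sample their medians were -0.01 and 0.

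The cell markers moved with the TCF-1-deficient array as well. All 13 thymocyte markers reached the median level of all genes on these arrays. Of the 13, 8 were at least 1.5-fold lower in the TCF-1-deficient sample than on wild type and 2 higher. Cd4 measured 12.87, 13.29 and 9.13, Cd8a 12.93, 12.97 and 11.48, and Ptcra, the pre-T cell receptor chain, 8.91, 8.37 and 10.70. Of the 7 B lymphocyte markers 5 were at least 1.5-fold higher in the TCF-1-deficient sample, with Cd79a at 6.99, 7.96 and 9.52, and their summed linear value was 1323 on wild type, 1536 on the transgenic and 2576 in the TCF-1-deficient sample. The same sum over the thymocyte markers was 77543, 79864 and 45431. Summed over 8 myeloid markers it was 1050, 1188 and 1365, and over 9 proliferation markers 25475, 23327 and 25863. The proliferation markers had a median difference of 0.00 in the TCF-1-deficient sample, with 4 above and 4 below, and were all lower on the transgenic array, by a median of 0.10. Averaged over the 3 arrays, the 6 thymic epithelial markers were under the median level of all genes, 6.90. So were 5 of the 7 B lymphocyte, 5 of the 8 myeloid and 3 of the 4 erythroid markers. Of those 5 B lymphocyte markers, Ms4a1, Pax5, Cd22 and Ebf1 were above that level in the TCF-1-deficient sample, at 7.77, 7.31, 7.22 and 7.21. Blnk, at 6.60, was not. In the TCF-1-deficient sample the median was 0.12 over the erythroid, 0.02 over 6 fibroblast and endothelial and 0 over 8 muscle and fat markers. Single markers differed more. Alas2, of haem synthesis in red cells, measured 7.14, 8.25 and 8.28, the myeloid Lyz2 8.05, 8.44 and 9.17, and the myeloid Itgam 6.84, 7.81 and 6.70. The part of cell composition in the differences of the respiratory chain genes was not tested.

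Some members were read by several probe sets on the same arrays. The 18 members with several probe sets had 45 in all, and the range between the differences of 1 gene's probe sets had a median of 0.07 for the TCF-1-deficient array minus wild type and was under 0.1 for 11 genes. The median difference over the members was 0.14. Probe sets with 1 gene's symbol were read on the same arrays, so their range does not measure the spread between mice or between arrays. Whether they all read the same transcript was not tested. A further 6 probe sets carried a subunit's symbol together with that of a near-identical copy and were left out. They name Cox7c and Ndufb4, which are therefore not among the 91 genes, and Ndufs5, which is through another probe set. Their TCF-1-deficient minus wild type differences were between 0 and 0.06.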

How the data were processed

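The deposited table holds 35556 probe sets with 1 value for each of 3 arrays. The authors deposited values taken here as log2: RMA and Partek are named per the submitters' processing notes, and the values run from 1.73 to 14.8, but no header states the base. For the versions, settings and genome build, the entry is: not given in the sources used here. No array was left out. Probe sets were named from the platform annotation, and the 21789 with 1 symbol were used. Differences are log2 values of 1 array minus another on the deposited scale, and the number of arrays limits their precision.

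The members, the gene lists and the markers were chosen with earlier results of these data known, and the promoter motifs after the members' values had been seen. A longer form of the NRF1-type motif was searched first, matched fewer promoters in every set and was replaced by its core. The genes named were, for each complex and each comparison with wild type, the 3 with the largest difference each way, those beyond 1.5-fold, tissue-restricted isoforms with counterparts, members with opposed probe sets and the leading genes of each list. Further members were named to complete a complex. The locus targeted in the TCF-1-/- mouse is not analysed here. All 91 members matched the GRCm38.p6 gene table by Entrez identifier. Calculations used Python 3.11.15, NumPy 2.4.6, pandas 2.3.3, statsmodels 0.14.6 (loess, span 0.3) and matplotlib 3.10.9, and the counting steps were tested on simulated data. Alternatives covered array centring, loess, the probe set rule, the members taken and the size of difference.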

Additional observations from a re-analysis of the deposited data

How the results depend on the processing

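No paired analysis was possible because each genotype has 1 array. Of the alternatives for the medians and counts over all 91 genes, 44 were labelled as within the tolerance set for them and 25 as moved. Those labelled within include the count relative to the bright genes, which was not recomputed and was entered as unchanged in each comparison. Leaving out identical values cannot change a count beyond 1.5-fold. Of the alternatives for single complexes and genes, 285 were labelled as within tolerance and 26 as moved. Many could not move. Leaving out other genes does not alter a single gene's value, and a gene with 1 probe set has no other to choose. Centring on named genes, and for the transgenic array centring on all probe sets, shifted differences by less than the tolerance of 0.1. The totals therefore do not measure how robust the results are. Leaving out members with several probe sets and centring on named genes were chosen after seeing the data.

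For the TCF-1-deficient array minus wild type, the median of 0.14 became 0.27 with each array centred on all probe sets, 0.21 after loess and 0.20 relative to the bright genes. The count beyond 1.5-fold, 2, became 7 with centring on all probe sets and 5 after loess. It was 1 with the mean of a gene's probe sets, 1 with the lowest probe set, 1 without members that have several and 1 with centring on named genes. It was 0 at 2-fold and 21 at a size of 0.32 on the log2 scale.

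For the transgenic array minus wild type, the median of 0 became 0.079 with centring on all probe sets, 0.0001 after loess, -0.017 without identical values, -0.0041 with centring on named genes and -0.011 with the mean over the genes in place of the median. The count of 1 became 0 with centring on all probe sets, 0 at 2-fold and 4 at 0.32.

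For the transgenic minus the TCF-1-deficient array, the median of -0.14 became -0.19 with centring on all probe sets, -0.20 after loess and -0.18 relative to the bright genes. The count of 4 became 2 without members that have several probe sets, 0 at 2-fold and 20 at 0.32. Among single genes, Cycs and Uqcr11 moved with the choice of probe set. With the lowest probe set the Cycs difference changed sign, to -0.29 in the TCF-1-deficient and -0.48 in the transgenic sample, and it was 0.10 and 0.034 with the mean of its probe sets. For Uqcr11 the TCF-1-deficient minus wild type difference was 0.47 as a mean and 0.25 with the lowest probe set.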
